A study of Mus musculus with 62 samples.

Results

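The comparison described here asks where a Huntingtin repressor changed the RNA of the zQ175 mouse striatum more, or less, in neurons than in the tissue as a whole. It rests on 16 of the 62 RNA-seq libraries of the study, all from zQ175 mice: N-ZFP neuronal RNA, N-Delta neuronal RNA, N-ZFP bulk RNA and N-Delta bulk RNA, with 4 libraries each. For each gene the N-ZFP effect (N-ZFP over N-Delta) was taken in neuronal RNA and in bulk RNA, and the difference of the effects, neuronal minus bulk, was tested. zQ175 is a knock-in mouse model of Huntington's disease. The mice received adeno-associated virus into the striatum at 6 months of age, and RNA was taken at 12 months. The N-ZFP virus encodes a zinc-finger protein directed at mutant Huntingtin and N-Delta is its control virus, so all 16 libraries come from virus-injected mice. The labels call these viruses neuronal and name no promoter, dose or zygosity, and they do not say how neuronal RNA was obtained. The column names of the count table call neuronal libraries IP and bulk libraries Input. WT mice with the same viruses gave 15 further libraries, and R6/2 and NCAR mice with N viruses of the PHP.eB type, injected at 4 weeks and collected at 11 weeks, gave 16 bulk libraries. Both sets are used below only as libraries that the zQ175 comparison did not use. For R6/2 and NCAR mice the protocol text describes N viruses as astrocytic, whereas the cell-type label of those libraries is neuron.

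The striatum consists mostly of inhibitory projection neurons, which receive excitatory input from the cortex and dopamine from the midbrain and which are lost in Huntington's disease. The disease is caused by a long run of CAG units in the coding sequence of HTT. Zinc-finger repressors are DNA-binding proteins joined to a domain that silences transcription. Published repressors selective for the mutant allele recognise the repeat itself, but the labels do not say what the repressor used here binds.

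Library totals were 4610476 to 12114906 counts for neuronal RNA and 8664055 to 10720583 counts for bulk RNA. A count of 0 allows up to 3 counts, 0.248 to 0.651 CPM (counts scaled to a common library size) across the 16 libraries, and such limits cover counting error only. Neuronal N-ZFP libraries 1 and 3 stood apart from the rest of their group. Mitochondrially encoded protein genes took 1.20% and 1.97% of counts in neuronal N-ZFP libraries 1 and 3 and 0.139% and 0.194% in libraries 2 and 4, against 0.0919% to 0.210% in neuronal N-Delta libraries. The share was 2.6% to 2.81% in bulk N-ZFP libraries and 2.36% to 2.77% in bulk N-Delta libraries. Nuclear long noncoding RNAs summed to 16800 and 28870 CPM in neuronal N-ZFP libraries 1 and 3 and to 3780 and 4364 CPM in libraries 2 and 4, against 2672 to 5198 CPM in neuronal N-Delta libraries. Results are therefore given with and without neuronal N-ZFP libraries 1 and 3. Markers of striatal projection neurons had a median enrichment in neuronal over bulk RNA of 0.61 (log2) in WT N-Delta mice, against -4.77 for microglial and complement genes and -1.52 for astrocyte markers. These medians fit the label of the neuronal libraries. Those of cortical excitatory markers (-0.39) and of ependymal and choroid plexus markers (0.33) went against it.

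**Figure D1:**
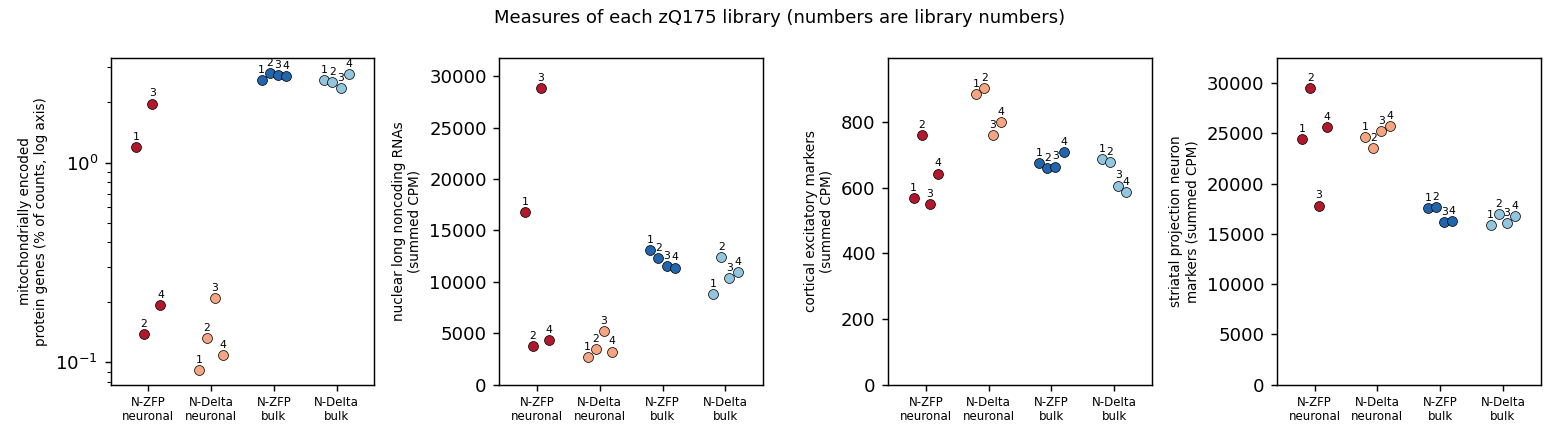
Measures of each of the 16 zQ175 libraries by group, as the share of counts from mitochondrially encoded protein genes (percent, log axis) and as summed CPM of nuclear long noncoding RNAs, cortical excitatory markers and striatal projection neuron markers. Numbers beside points are library numbers; neuronal N-ZFP libraries 1 and 3 lie above the other neuronal libraries in the first 2 panels.

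Huntingtin itself was examined first. Htt (ENSMUSG00000029104) had 294.1, 254.9, 318.4 and 252.9 CPM in neuronal N-ZFP libraries and 274.4, 288.9, 358.7 and 287.4 CPM in neuronal N-Delta libraries. In bulk RNA it had 261.0, 191.9, 210.6 and 215.8 CPM in N-ZFP libraries and 192.6, 218.2, 203.5 and 203.2 CPM in N-Delta libraries. The N-ZFP and N-Delta libraries overlapped in both kinds of RNA. The N-ZFP effect (log2) was -0.11 ± 0.11 (SE) in neuronal RNA and 0.11 ± 0.11 in bulk RNA, and the difference was -0.22 ± 0.16 (adjusted p = 0.497), or -0.36 ± 0.13 (adjusted p = 0.490) without neuronal N-ZFP libraries 1 and 3. The counts are per gene and do not separate the knock-in allele from the other, so they do not measure mutant Huntingtin. None of the 9 CAG repeat disease genes tested was called. Of these, Tbp, the TATA-binding protein, had a difference of 0.53 ± 0.25 (adjusted p = 0.421), or 0.06 ± 0.11 without neuronal N-ZFP libraries 1 and 3.

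Of 16824 genes tested, 17 were called lower for the difference (0.101% of genes tested) and none was called higher (0%), at an adjusted p under 0.05. At an unadjusted p under 0.05, 1379 genes were higher and 607 lower. In neuronal RNA taken alone, 112 genes were called lower (0.666%) and 137 higher (0.814%); in bulk RNA taken alone none was called in either direction (0% called lower), with 240 genes at an unadjusted p under 0.05. The neuronal counts depend on the libraries in the fit. A fit of the 8 neuronal libraries alone called 7 genes lower and none higher, and leaving out libraries gave 27 to 2055 lower and 1 to 3398 higher. The 17 genes were Tceal6, Lysmd2, Nrn1, C1ql3, Nap1l3, Dach1, Cnih3, Dnajc12, Pde1a, Fkbp3, Atp2b3, Eid2b, Car10, St6galnac5, Dkk3, Cck and Opcml, in order of p. Their differences (log2) ran from -1.82 to -0.64 with a median of -1.10, against a median of 0.005 over all genes tested. Their N-ZFP effects were -2.06 to -0.51 in neuronal RNA, where each was also called in the fit of 16 libraries, and -0.24 to 0.28 in bulk RNA, where none was called and standard errors were 0.0812 to 0.190. The genes were chosen on these libraries, so the following counts describe the choice and support nothing. Every neuronal N-ZFP library lay below every neuronal N-Delta library for all 17 genes (6.4% of genes tested). In bulk RNA no gene of the 17 had every N-ZFP library below every N-Delta library (1.83% of genes tested), and 1 of them, Pde1a, had every N-ZFP library above. The last gene inside the threshold, Opcml, had an adjusted p of 0.0347, and the first outside it, Acsl1, had a difference of -0.54 and an adjusted p of 0.0507. The labels do not say that libraries of a group come from separate animals, so p-values measure only the spread between these libraries.

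**Figure D2:**
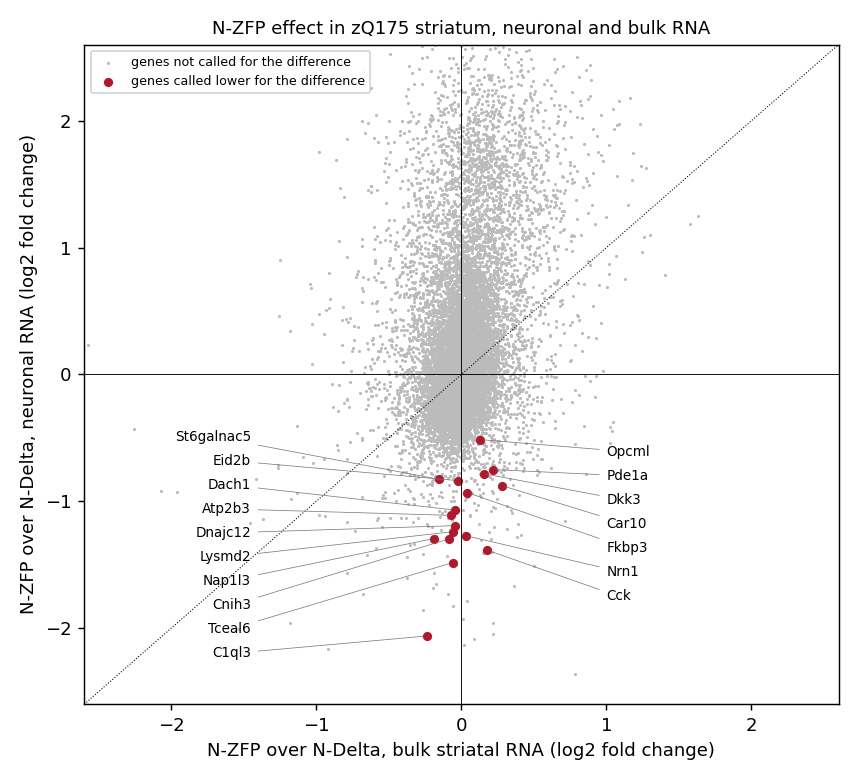
N-ZFP effect (log2 N-ZFP over N-Delta) in neuronal RNA on the vertical axis and in bulk RNA on the horizontal axis for zQ175 striatum; each point is a gene, and the dotted line marks equal effects. The 17 genes called for the difference (red) lie below the line, between -2.06 and -0.51 in neuronal RNA and close to 0 in bulk RNA; 84 of 16824 genes fall outside the axes.

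Because the repeat that causes the disease is made of CAG units, unbroken runs of CAG or its complement CTG were looked up in the annotated transcripts of the 17 genes (GENCODE M21, mouse build GRCm38/mm10). A run of at least 5 units was present in 5 of the 17 genes (29.4%), against 3% of the 16761 genes tested that have a transcript sequence, and a run of at least 6 units in 4 of them (23.5%), against 1.68%. At 3 units or more the shares were 52.9% and 30.8%. Most genes with a long run were not called: 502 of the genes tested had a run of at least 5 units, the 5 called genes among them. Frem2, with a run of 6 units, had a difference of 0.65 ± 0.18 and was not called. The median length of the longest transcript was 3025 bases for the 17 genes and 3189 bases for all. The 5 runs and that of Htt are shown because their share among the 17 genes was above that among all genes tested, a description made after the genes were known; capitals mark the run, and each stretch is read 5′ to 3′ on the transcript strand.
Tceal6, 5′ UTR, chrX:135210626-135210655, minus strand: ctagtcCTGCTGCTGCTGCTGCTGcggata
Nap1l3, coding, chrX:122396808-122396837, minus strand: tagCAGCAGCAGCAGCAGCAGCAGCAGtag
Dach1, coding, chr14:98168885-98168914, minus strand: cagtagCAGCAGCAGCAGCAGCAGtagcag
Cnih3, 5′ UTR, chr1:181352654-181352683, plus strand: agcagaagCAGCAGCAGCAGCAGgtggagc
St6galnac5, coding, chr3:152981175-152981204, minus strand: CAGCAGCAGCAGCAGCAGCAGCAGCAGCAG
Htt, coding, chr5:34761958-34761987, plus strand: cagcagcaaCAGCAGCAGCAGccaccgccg
The run has 6 units in Tceal6, 8 in Nap1l3, 6 in Dach1, 5 in Cnih3 and 11 in St6galnac5, of which the first 30 bases are shown. The reference mouse Htt gene has 4 units without a break, and the knock-in repeat is not part of the reference. In promoters (RefSeq, GRCm38.p6, 250 bases before to 50 after the gene start), 10 of the 17 genes were matched. Of these, Tceal6, Cnih3, Fkbp3 and Opcml had a run of at least 3 units on either strand. So did 2.11% of 27025 genes with a promoter, tested here or not. The Tceal6 and Cnih3 runs shown above start at bases 39 and 33 of their transcripts, inside the 50 bases after the start. For these genes the promoter may hold the same run, which is then no separate match. These matches describe the letters only, and any part of them in the levels was not tested.

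Proteins that act on transcription and chromatin formed the first group. Tceal6, a member of the transcription elongation factor A-like family (ENSMUSG00000031409, chrX:135208687-135210687, minus strand), had 27.5, 22.2, 25.7 and 22.7 CPM in neuronal N-ZFP libraries and 68.3, 68.8, 64.0 and 71.9 CPM in neuronal N-Delta libraries. In bulk RNA it had 41.5, 41.4, 54.0 and 44.4 CPM in N-ZFP libraries and 47.6, 43.5, 41.0 and 56.6 CPM in N-Delta libraries. The neuronal groups did not overlap and the bulk groups did. The N-ZFP effect on Tceal6 (log2) was -1.48 ± 0.12 in neuronal RNA, a 2.79-fold lower level, and -0.06 ± 0.11 in bulk RNA, and the difference was -1.43 ± 0.16 (adjusted p = 0.00149). Tceal6 shares 57.2% of its 31-base words with other annotated genes, most of them with Tceal3, so the counts of this gene are uncertain.

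Nap1l3, a member of the nucleosome assembly protein family (chrX:122394565-122397401, minus strand), had 40.5, 31, 33.2 and 37.6 CPM in neuronal N-ZFP libraries and 86.6, 91.2, 85.4 and 85.7 CPM in neuronal N-Delta libraries. In bulk RNA it had 46.4, 44.4, 60.3 and 51.1 CPM in N-ZFP libraries and 61.8, 47.3, 59.6 and 62 CPM in N-Delta libraries. Nap1l3 fell in neuronal RNA in every N-ZFP library, and its bulk libraries overlapped. The difference was -1.10 ± 0.16 (adjusted p = 0.00890). Dach1, a transcription cofactor of development (chr14:97786853-98169765, minus strand), had 76.5, 54.0, 67.0 and 51.2 CPM in neuronal N-ZFP libraries and 125.8, 129.7, 128.4 and 135.6 CPM in neuronal N-Delta libraries. In bulk RNA Dach1 averaged 88.3 ± 8.38 CPM in N-ZFP libraries and 91.1 ± 3.6 CPM in N-Delta libraries (SD, n = 4 each). Its neuronal N-ZFP libraries 1 and 3 were the closest to the N-Delta level, and the difference was -1.02 ± 0.15 (adjusted p = 0.0116), or -1.26 ± 0.10 (adjusted p = 1.39e-06) without them. Eid2b, named as an EP300-interacting inhibitor of differentiation (chr7:28277739-28279489, plus strand), averaged 12.3 ± 1.04 CPM in neuronal N-ZFP libraries and 22.1 ± 1.69 CPM in neuronal N-Delta libraries, with a difference of -0.81 ± 0.14 (adjusted p = 0.0278).

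Secreted proteins of synapses and neuropeptides held the 2 largest differences. C1ql3, a secreted C1q-like protein that bridges synapses (chr2:13003457-13011806, minus strand), had 6.30, 7.13, 8.29 and 5.36 CPM in neuronal N-ZFP libraries and 28.1, 29.4, 22.8 and 31.2 CPM in neuronal N-Delta libraries. In bulk RNA C1ql3 had 26.5, 17.3, 20.6 and 20.6 CPM in N-ZFP libraries and 27.9, 17.7, 24.8 and 29.7 CPM in N-Delta libraries. The neuronal level was 4.18-fold lower, the bulk libraries overlapped, and the difference was -1.82 ± 0.25 (adjusted p = 0.00553). Cck, the precursor of the neuropeptide cholecystokinin (chr9:121489824-121495694, minus strand), had 7.2, 16.3, 10.9 and 11.1 CPM in neuronal N-ZFP libraries and 28.1, 39.6, 27.8 and 25.4 CPM in neuronal N-Delta libraries. In bulk RNA Cck averaged 29.4 ± 5.53 CPM in N-ZFP libraries and 25.9 ± 3.06 CPM in N-Delta libraries. The neuronal groups did not overlap, and the difference was -1.57 ± 0.28 (adjusted p = 0.0347).

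Nrn1 encodes neuritin, a surface protein that promotes neurite growth (chr13:36725361-36735131, minus strand). It had 15.8, 12.2, 12.5 and 14.0 CPM in neuronal N-ZFP libraries and 35.8, 30.4, 29.7 and 36.1 CPM in neuronal N-Delta libraries, against 35.1 ± 5.94 CPM in bulk N-ZFP libraries and 34.3 ± 2.59 CPM in bulk N-Delta libraries. Neuronal Nrn1 was thus low in each N-ZFP library while its bulk levels overlapped, with a difference of -1.31 ± 0.17 (adjusted p = 0.00553). Dkk3, a secreted glycoprotein of the Dickkopf family (chr7:112116017-112159057, minus strand), had a neuronal N-ZFP effect of -0.78 ± 0.12 and a bulk effect of 0.15 ± 0.11. Car10, an inactive relative of carbonic anhydrases that binds neurexins (chr11:93098028-93601749, plus strand), had a neuronal effect of -0.88 ± 0.14 and a bulk effect of 0.28 ± 0.14. Opcml, an adhesion molecule of the IgLON family (chr9:27790775-28925410, plus strand), had the smallest difference of the 17, -0.64 ± 0.11, from 136.5 ± 4.71 CPM in neuronal N-ZFP libraries against 195.0 ± 6.89 CPM in neuronal N-Delta libraries.

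**Figure D3:**
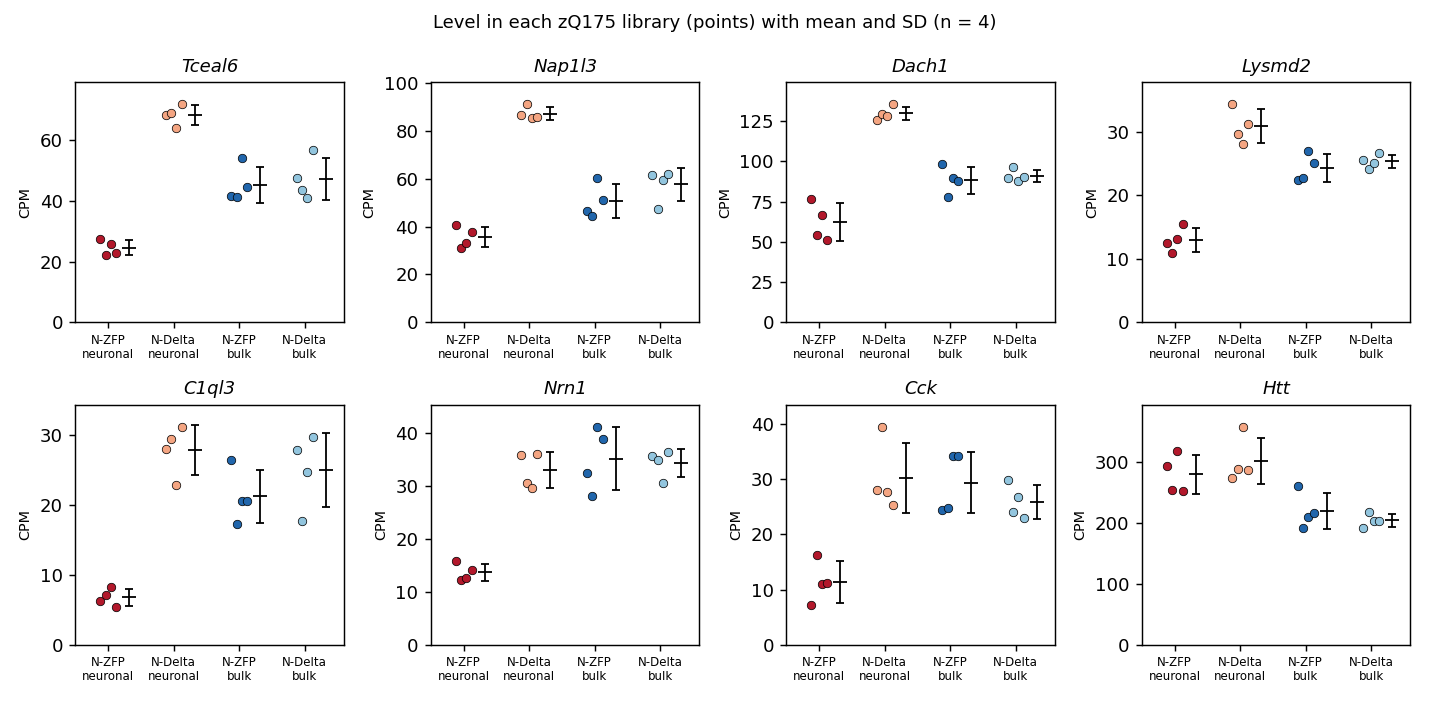
Level in CPM of 7 of the genes called for the difference and of Htt in each zQ175 library (points), with the mean and SD of 4 libraries at the right of each group. For the 7 genes the neuronal N-ZFP points lie below all neuronal N-Delta points and the bulk groups overlap, while Htt overlaps in both kinds of RNA.

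Genes of calcium, receptor and second messenger function made up the next group. Atp2b3, a calcium pump of the plasma membrane (chrX:73503086-73571005, plus strand), had 95.3, 66.3, 90.0 and 68.3 CPM in neuronal N-ZFP libraries and 168.7, 173.6, 163.7 and 182.6 CPM in neuronal N-Delta libraries. Its bulk levels were 90.9 ± 14.0 CPM in N-ZFP libraries and 95.3 ± 7.75 CPM in N-Delta libraries. As for Dach1, libraries 1 and 3 were nearest to the N-Delta level, and the difference was -1.04 ± 0.18 (adjusted p = 0.0278), or -1.28 ± 0.14 (adjusted p = 4.93e-05) without them. Pde1a, a calcium-dependent phosphodiesterase (chr2:79834453-80129458, minus strand), had 59.7, 84.2, 65.5 and 62.3 CPM in neuronal N-ZFP libraries and 125.8, 123.1, 98.6 and 110.8 CPM in neuronal N-Delta libraries. In bulk RNA Pde1a had 98.9, 98.8, 109.6 and 115.8 CPM in N-ZFP libraries and 96.5, 89.6, 90.3 and 87.7 CPM in N-Delta libraries. It was low in neuronal N-ZFP libraries and on the high side in bulk N-ZFP libraries, where the effect of 0.22 ± 0.11 was not called (adjusted p = 1.00), and its difference was -0.97 ± 0.15 (adjusted p = 0.0137). Cnih3, an auxiliary subunit of AMPA receptors (chr1:181352628-181460641, plus strand), averaged 11.3 ± 2.08 CPM in neuronal N-ZFP libraries and 27.5 ± 4.43 CPM in neuronal N-Delta libraries, with a difference of -1.21 ± 0.19 (adjusted p = 0.0137).

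The other members were 2 proteins that assist folding, a glycosyltransferase and a protein of little-known role. Dnajc12, a co-chaperone of the Hsp40 family (chr10:63382443-63410576, plus strand), averaged 5.95 ± 1.08 CPM in neuronal N-ZFP libraries and 13.7 ± 0.978 CPM in neuronal N-Delta libraries. Fkbp3, a nuclear prolyl isomerase (chr12:65062424-65074007, minus strand), averaged 63.5 ± 10.8 CPM in neuronal N-ZFP libraries and 121.6 ± 7.13 CPM in neuronal N-Delta libraries. Their differences were -1.15 ± 0.18 for Dnajc12 and -0.97 ± 0.16 for Fkbp3 (adjusted p = 0.0137 and 0.0228). St6galnac5, which adds sialic acid to gangliosides (chr3:152817081-152982246, minus strand), averaged 39.3 ± 3.53 CPM in neuronal N-ZFP libraries and 69.6 ± 4.53 CPM in neuronal N-Delta libraries, with a difference of -0.67 ± 0.12 (adjusted p = 0.0307). Lysmd2, which contains a LysM domain (chr9:75625741-75637771, plus strand), had 12.5, 10.8, 13.2 and 15.5 CPM in neuronal N-ZFP libraries and 34.4, 29.7, 28.0 and 31.2 CPM in neuronal N-Delta libraries. Its bulk libraries overlapped at 24.3 ± 2.21 CPM for N-ZFP and 25.3 ± 1.02 CPM for N-Delta, and the difference was -1.18 ± 0.15 (adjusted p = 0.00481). Nrn1, C1ql3, Fkbp3 and St6galnac5 overlap exons of genes on the other strand (Fars2, 2 predicted genes, Prpf39 and Pigk), and the sources used here do not say whether counting used strand.

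The 17 calls differed in how far they rested on single libraries. Tceal6, Lysmd2, Nrn1 and C1ql3 were called in each of the 16 fits that left out 1 library, and Nap1l3 in 13 of them. With all 31 libraries of both genotypes in the fit, however, Nrn1 and C1ql3 were not called (adjusted p = 0.172 and 0.179), and in the 8 fits that left out 1 number in both kinds of RNA they were called in 5. No label says whether bulk and neuronal libraries of one number come from the same animal. Taken as such, with the animal as a block, 6 genes were called: Tceal6 (adjusted p = 0.00986), Lysmd2, Nrn1, Dach1 and Atp2b3 (0.0155 each) and C1ql3 (0.0373). The other 11 genes had an adjusted p of 0.0632 to 0.428 in that fit. Eid2b, St6galnac5 and Dkk3 were called in 2 of the 16 fits without 1 library, and Opcml and Cck in 3. The sign of the difference did not turn for any of the 17 genes in any fit. Over the 8 fits that left out 1 number in both kinds of RNA, 0 to 19 genes were called lower, with 0 without N-Delta number 2. Over the 16 fits that left out 1 library, the total number called lower was 4 to 22. Leaving out any 1 of the 4 bulk N-Delta libraries, bulk N-ZFP libraries 1, 3 or 4, any 1 of the neuronal N-Delta libraries or neuronal N-ZFP library 4 moved it by more than 1.5 times, to between 4 and 11. Without neuronal N-ZFP library 2 the difference had 13 genes higher and 20 lower.

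**Figure D4:**
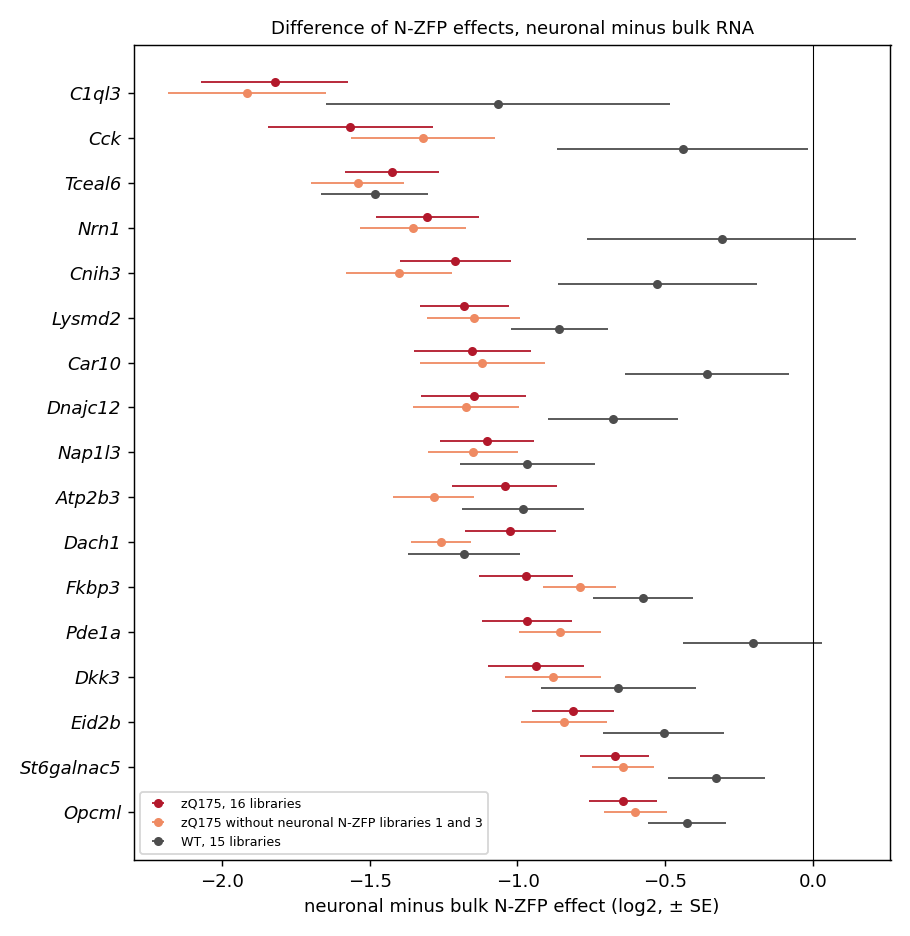
Difference of N-ZFP effects, neuronal minus bulk (log2, bars are SE), for the 17 genes in zQ175 (16 libraries), in zQ175 without neuronal N-ZFP libraries 1 and 3, and in WT (15 libraries). All points lie below 0; the zQ175 estimates with and without the 2 libraries lie close together, and the WT bars are the widest for C1ql3, Nrn1 and Cck.

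Without neuronal N-ZFP libraries 1 and 3, 36 genes were called lower for the difference (0.209% of 17219 genes) and 16 higher (0.0929%). All 17 genes were among the 36, with differences of -1.92 to -0.60 and a median of -1.15. The 19 genes added at the lower end included Arpp21, a cAMP-regulated phosphoprotein of striatal neurons, with a difference of -0.87 ± 0.10, and Kcnn3, a calcium-activated potassium channel, with -1.16 ± 0.17. Arpp21 had 385.5 and 363.9 CPM in neuronal N-ZFP libraries 2 and 4, 633.8 and 592.9 CPM in libraries 1 and 3, and 636.5 to 757.9 CPM in neuronal N-Delta libraries, so only libraries 2 and 4 lay clearly below. The 19 also held 3 markers of cortical excitatory neurons: Slc17a7, the vesicular glutamate transporter, with -1.66 ± 0.31, and the transcription factors Neurod2, with -1.94 ± 0.27, and Tbr1, with -1.93 ± 0.39. The 16 genes called higher included Grm3, a metabotropic glutamate receptor, with 0.69 ± 0.09, P2ry1, a purine receptor, with 0.89 ± 0.15, Htr1b, a serotonin receptor, with 0.62 ± 0.13, and Penk, the enkephalin precursor of indirect pathway neurons, with 0.44 ± 0.09. In the full set of 16 libraries these 4 differences were 0.45, 0.46, 0.38 and 0.07, and none was called (adjusted p = 0.420, 0.485, 0.430 and 0.903).

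Lists of cell type and pathway genes were read by their counts and medians beside all genes tested. Of 46 striatal projection neuron markers none was called for the difference, and their median was -0.08, or 0.15 without neuronal N-ZFP libraries 1 and 3, where 1 was called higher and 1 lower. The 10 direct pathway markers had a median of 0.11 and the 9 indirect pathway markers one of -0.01, with none called. Without the 2 libraries these medians were 0.36 and 0.15, and 1 indirect pathway marker was called higher. Of 20 interneuron markers 1 was called lower, Cck, and the median was -0.06. No member of 22 synaptic vesicle and release genes was called, with a median of -0.35 in the full set and -0.07 without the 2 libraries. Other medians moved more between the sets. They were 2.85 in the full set and 0.28 without the 2 libraries for mitochondrially encoded genes, 1.54 and -0.05 for nuclear long noncoding RNAs, 1.33 and 0.13 for microglial and complement genes, and 1.15 and -0.43 for 5 blood markers. They were 0.60 and 0.03 for oligodendrocyte precursor markers and 0.57 and 0.16 for cytosolic ribosomal protein genes. No member of these lists was called for the difference in the full set. Without the 2 libraries, Spp1 of the microglial list was called higher (1.505) and Rplp1 of the ribosomal list lower (-0.48). Developmental transcription factors, of which 12 of 56 passed the filter on low counts, had a median of -0.98 and none called for the difference. Without the 2 libraries the median was -0.93 and Hoxc4 was called lower, at -1.65 ± 0.35 (adjusted p = 0.0445). In neuronal RNA alone 3 of the 12 were called lower (0.666% of all genes tested were), Hoxc4 at -1.18 ± 0.24, Hoxc5 at -1.25 ± 0.21 and Pou4f1 at -2.17 ± 0.30. They are at 0.742 to 2.58 CPM on average in neuronal N-ZFP libraries. No member was called among heat shock chaperones (median -0.29, or 0.00 without the 2 libraries), endoplasmic reticulum stress genes (-0.21, or 0.00), cholesterol synthesis genes (-0.22, or -0.13) and homeostatic astrocyte markers (-0.21, or -0.003). Without the 2 libraries 1 astrocyte marker was called higher. In the full set, no list other than the interneuron markers had a member called for the difference. Cytosolic ribosomal protein genes had 69 of 72 differences above 0, and nuclear genes of oxidative phosphorylation had 66 of 70 below 0 with a median of -0.23, or 0.09 without the 2 libraries.

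Of the genes highest by p at the positive end, none of which was called, Grin2c, an NMDA receptor subunit, had a difference of 0.96 ± 0.22 (adjusted p = 0.251) and Bmp7, a bone morphogenetic protein, 0.95 ± 0.25 (adjusted p = 0.397). Without neuronal N-ZFP libraries 1 and 3 they were 1.05 and 1.14 and both were called. The other genes picked by the same rule had smaller differences without those libraries, and none was called. Cd84 went from 2.24 to 1.29, Hba-a2 from 3.07 to 1.92, P3h3 from 1.51 to 0.70 and mt-Nd6 from 2.86 to 1.46. Pltp went from 0.65 to 0.53, Mtrf1l from 0.90 to 0.60, Rpl32 from 0.47 to 0.38 and Frem2 from 0.65 to 0.56.

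Markers of cortical excitatory neurons also had a median difference below 0. It was -0.50, with 13 of 17 markers below 0 and none called, and 3 of them were called lower in neuronal RNA alone. Without neuronal N-ZFP libraries 1 and 3 the median was -0.84. In WT the median difference of the whole marker list was -0.18, against -0.58 for the 17 genes called in zQ175. The 17 genes were picked by their difference and the list was not, so the medians are not like measures. The 3 markers called lower in neuronal RNA had WT differences of -0.62 ± 0.55 (Slc17a7), -0.82 ± 0.60 (Neurod2) and -0.47 ± 0.60 (Tbr1), none called. Summed, the markers of the whole list came to 568.4, 760.7, 549.3 and 643.5 CPM in neuronal N-ZFP libraries of zQ175 and 884.7, 905.0, 760.9 and 801.0 CPM in neuronal N-Delta libraries. The sums were 660.3 to 707.9 CPM in bulk N-ZFP libraries and 587.4 to 687.4 CPM in bulk N-Delta libraries. The neuronal groups did not overlap (exact two-sided permutation test, p = 0.0286, the smallest that 4 against 4 can give, and 0.279 after adjustment over 39 tests of library measures), whereas the bulk groups did. Slc17a7 had 48.6, 65.9, 69.4 and 28.8 CPM in neuronal N-ZFP libraries and 135.8, 174.2, 105.3 and 104.3 CPM in neuronal N-Delta libraries, and none of the 17 markers was at 0 in all neuronal libraries. Fewer cells of a type and less RNA per cell cannot be told apart in such libraries. Their part in the differences of the 17 genes was not tested.

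In WT mice, whose libraries the zQ175 comparison did not use, the 17 genes went the same way. All 17 had an N-ZFP effect below 0 in WT neuronal RNA (50.8% of all genes did), and 13 were called lower there (0.367% of 17702 genes were). The effects of the 17 were -1.91 to -0.48. In WT bulk RNA, which had 3 N-ZFP libraries (1, 3 and 4), 15 of the 17 were below 0 (52.9% of all genes were), with a median of -0.22, and none was called. Tceal6 had 32.3, 20.1, 28.2 and 21.8 CPM in WT neuronal N-ZFP libraries and 78.8, 70.3, 77.4 and 76.7 CPM in WT neuronal N-Delta libraries, which did not overlap. Dach1 had 97.1, 55.2, 80.4 and 63.5 CPM in WT neuronal N-ZFP libraries and 203.7, 159.5, 150.4 and 154.9 CPM in WT neuronal N-Delta libraries. Dach1 was again least low in libraries 1 and 3, whose mitochondrial share in WT N-ZFP mice was 0.338% and 0.512%, against 0.113% and 0.122% in libraries 2 and 4. C1ql3 had 4.97, 19.9, 5.58 and 3.66 CPM in WT neuronal N-ZFP libraries and 11.9, 48.9, 50.7 and 15.2 CPM in WT neuronal N-Delta libraries, which overlapped. WT neuronal N-ZFP library 2 was not low for every gene. Cck had 35.4 CPM in it, against 25.3 to 34.5 CPM in WT neuronal N-Delta libraries. Nrn1 (13.1 CPM), Dkk3 (85.8 CPM) and Pde1a (120.5 CPM) lay within the range of those N-Delta libraries.

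The difference of N-ZFP effects in WT, neuronal minus bulk, was below 0 for all 17 genes (-1.48 to -0.20, median -0.58, against 48.7% of all genes below 0). It was called for 3 of them, Tceal6 at -1.48 ± 0.18, Dach1 at -1.18 ± 0.19 and Lysmd2 at -0.86 ± 0.16, among 5 genes called lower in all (0.0282%). Without neuronal N-ZFP libraries 1 and 3 of both genotypes, it was called for 5 of the 17, with Atp2b3 and Nap1l3 added, and 16 of the 17 were below 0. The difference between zQ175 and WT was then tested directly. No gene was called for zQ175 minus WT, with 514 genes at an unadjusted p under 0.05, and the smallest adjusted p among the 17 was 0.973. The estimates for the 17 were -1.13 to 0.15 with a median of -0.35, and 15 of 17 were below 0 (50.3% of all genes were). The 17 were chosen for a negative difference in zQ175, and that difference is part of this contrast. The choice itself thus favours estimates below 0, so the count of 15 shows no larger effect in zQ175. For Tceal6 the zQ175 minus WT estimate was 0.05 ± 0.26, and for Lysmd2 it was -0.33 ± 0.23. For Cck, with the most negative estimate, it was -1.13 ± 0.61, so the size of any genotype difference was poorly fixed. Without the 2 libraries in both genotypes, 1 gene was called for zQ175 minus WT, Penk at 0.78 ± 0.12 (adjusted p = 0.00817), and none of the 17.

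The genotypes also differed in some of these genes under the control virus. Between zQ175 and WT N-Delta mice, 1 of the 17 was called lower in neuronal RNA (6.41% of all genes were), Dach1 at -0.40 ± 0.13, and 3 in bulk RNA (5.02% of all genes), Opcml at -0.38 ± 0.09, St6galnac5 at -0.38 ± 0.11 and Car10 at -0.61 ± 0.19. Nrn1 was the one called higher, at 1.54 ± 0.29 in neuronal RNA (6.24% of all genes were higher) and 1.07 ± 0.27 in bulk RNA (2.07%). The neuronal count of 1 of 17 is near its share. These values share the zQ175 N-Delta libraries with the N-ZFP effects above. Htt was lower in zQ175 than in WT N-Delta mice in both, at -0.54 ± 0.09 in neuronal RNA and -0.47 ± 0.09 in bulk RNA.

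**Figure D5:**
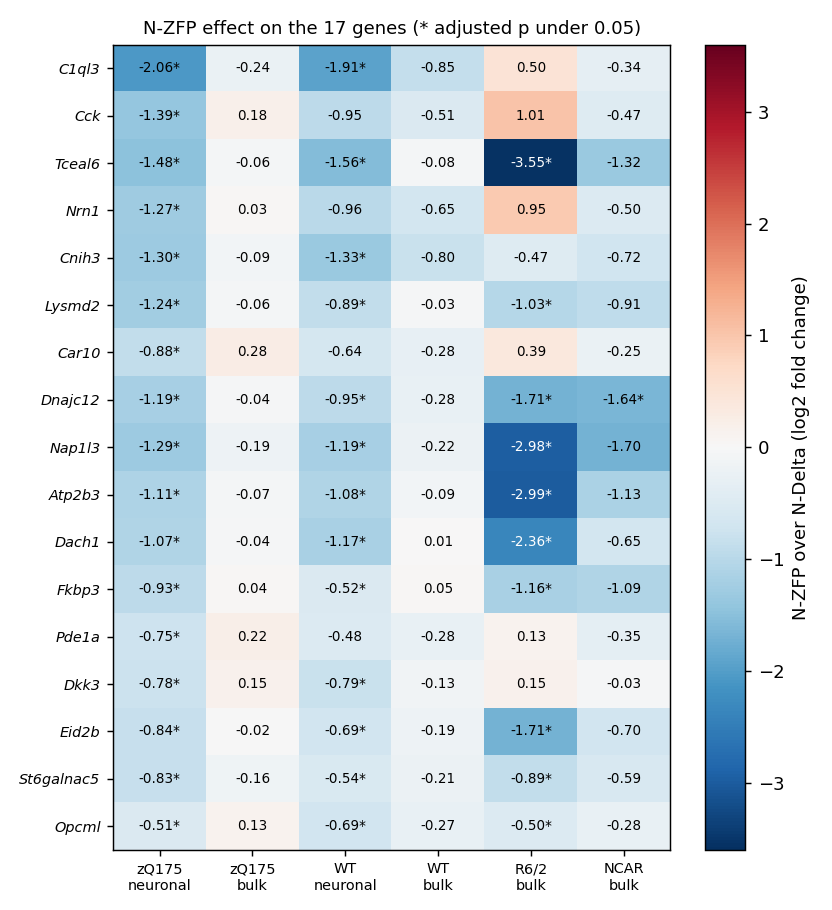
N-ZFP over N-Delta (log2 fold change, colour and number) for each of the 17 genes in zQ175 neuronal, zQ175 bulk, WT neuronal, WT bulk, R6/2 bulk and NCAR bulk RNA; an asterisk marks an adjusted p under 0.05. All values are negative in both neuronal columns, zQ175 bulk is near 0, and R6/2 bulk runs from -3.55 for Tceal6 to 1.01 for Cck.

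Bulk striatum of R6/2 mice, which carry a mutant HTT transgene and received other viruses at another age, gave a second set of independent libraries. Of the 17 genes, 11 had an N-ZFP effect below 0 in R6/2 bulk RNA (52.1% of all genes did) and 10 were called lower (2.54% of 20559 genes were). The effects were -3.55 ± 0.44 for Tceal6, -2.99 ± 0.38 for Atp2b3, -2.98 ± 0.38 for Nap1l3 and -2.36 ± 0.28 for Dach1. In NCAR bulk RNA all 17 were below 0 (46.9% of all genes were) and 1 was called lower, Dnajc12 at -1.64 ± 0.28 (0.0486% of genes). The choice of the 17 by a negative neuronal minus bulk value favours bulk effects in zQ175 that are near 0 or above. Their zQ175 bulk values are therefore no contrast to those of R6/2. The sets also differ in virus type and age, and no test was made between them.

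Set against a measure that used neither comparison, the 10 genes called lower in R6/2 bulk RNA and the other 7 stood apart. In WT N-Delta mice, neuronal over bulk RNA was 0.32 to 0.79 (log2) for the 10 genes, each called higher in neuronal RNA (29.1% of 15954 genes were). For the other 7 genes (C1ql3, Cck, Nrn1, Cnih3, Car10, Pde1a and Dkk3) it was -0.66 to 0.07, and 3 of them, Nrn1, Dkk3 and Cck, were called lower in neuronal RNA (32.9% of genes were). The ranges of the 2 sets did not overlap. The 10 genes were each called lower in WT neuronal RNA, against 3 of the 7 (C1ql3, Cnih3 and Dkk3). That effect and the neuronal over bulk measure share the WT N-Delta neuronal libraries, which enter them with opposite sign. The match between them is therefore not independent. This division was made after the values were seen and is given as a description.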

How the data were processed

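Striatal RNA was purified on RNeasy columns and made into libraries with the TruSeq stranded total RNA kit, per the labels' protocols. The aligner was STAR, the genome mm10 and the counting tool HTSeq, per the submitters' processing notes; their versions and the strand setting are not given in the sources used here. Values in the authors' deposited table are raw counts of reads for 48795 Ensembl gene IDs, with no scaling. A symbol was found for 48349 IDs and none for 446. Each column was tied to its sample through the label that bears its name.

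The members and gene lists were chosen with earlier results of these data known. The 16 zQ175 libraries were fitted with edgeR 4.0.16 in R 4.3.3 by quasi-likelihood F tests, after filterByExpr and TMM scaling, with 1 coefficient per group, and adjusted p-values are Benjamini-Hochberg over all genes tested. WT contrasts came from a fit of 31 libraries, R6/2 and NCAR contrasts from one of the 16 N-virus libraries, and neuronal over bulk RNA from the 8 WT N-Delta libraries. Standard errors are the log2 change over the root of F. CPM use TMM-scaled totals, with means ± SD (n = 4 unless stated). For sums of markers per library, exact permutation tests (two-sided) were used. Alternatives used DESeq2 1.42.0, limma 3.58.1, other filters and scalings, replicate blocks and left-out libraries. The fit was tested on simulated data.

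Genes named are the CAG repeat disease genes, the called genes, those nearest to a call at the positive end (at least 2 CPM and no overlap in 1 RNA kind) and up to 3 members of a list with the smallest p. Acsl1, Kcnn3, P2ry1, Htr1b and Penk were named after their values were seen.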

Additional observations from a re-analysis of the deposited data

Results flagged for a closer look

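The 17 genes are listed because the test of the difference itself set the N-ZFP effect in neuronal RNA apart from that in bulk RNA of zQ175 mice. The differences (log2, neuronal minus bulk) were -1.43 for Tceal6, -1.18 for Lysmd2, -1.31 for Nrn1, -1.82 for C1ql3, -1.10 for Nap1l3, -1.02 for Dach1, -1.21 for Cnih3, -1.15 for Dnajc12 and -0.97 for Pde1a. For the rest they were -0.97 for Fkbp3, -1.04 for Atp2b3, -0.81 for Eid2b, -1.15 for Car10, -0.67 for St6galnac5, -0.94 for Dkk3, -1.57 for Cck and -0.64 for Opcml.

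Single libraries lay far from the other 3 of their group in 5 of 96 sets of 4 libraries examined, and chance gives about 1 in 20. Nap1l3 had 47.3 CPM in bulk N-Delta library 2, against 59.6 to 62 CPM in the others. Dnajc12 had 15.1 CPM in neuronal N-Delta library 2, against 13.1 to 13.2 CPM. St6galnac5 had 62.8 CPM in neuronal N-Delta library 1, against 71.4 to 72.2 CPM. Microglial and complement genes summed to 272.1 CPM in neuronal N-ZFP library 1, against 325.0 to 332.1 CPM. The total of bulk N-ZFP library 2 was 9479790 counts, against 8664055 to 8719165.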

How the results depend on the processing

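For the difference in zQ175 (0 genes higher, 17 lower), all 17 genes were also called with size factors of DESeq2 in edgeR (17 lower), with a mean count of at least 10 (17), without mitochondrial genes (17) and with limma-voom (19 lower). Without a filter it had 16 lower, 14 of them shared. With all 31 libraries in the fit 11 were lower, 8 of them shared. DESeq2 gave 7 higher and 38 lower, limma-voom with sample quality weights 5 and 48, the mitochondrial share as a covariate 5 and 28, and leaving out neuronal N-ZFP libraries 1 and 3 gave 16 and 36, each holding the 17. The replicate number does not establish pairs: for same-numbered bulk and neuronal libraries of a virus, deviations correlated at 0.105 on average (-0.193 to 0.41, over 0.1 in 4 of 8), against -0.0345 for other numbers. With the animal as replicate block 6 genes were lower, and with the number as replicate block 11. Leaving out 1 library, or 1 number in both kinds of RNA, gave 0 to 13 higher and 0 to 22 lower; the 0 lower came without N-Delta number 2.

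The neuronal effect alone (137 higher, 112 lower) had 830 and 176 genes without a filter, 212 higher with a mean count of at least 10, 2347 and 1591 with 31 libraries, 1982 and 751 with DESeq2, 23 and 74 with limma-voom, 30 and 73 with the number as replicate block, 215 higher without neuronal N-ZFP libraries 1 and 3, and 0 and 7 in a fit of the 8 neuronal libraries. Leaving out libraries gave 1 to 3398 higher and 27 to 2055 lower. The bulk effect had 0 genes in every fit. In WT, the difference (5 lower) had 16 lower without neuronal N-ZFP libraries 1 and 3 of both genotypes, 6 with the animal as replicate block and 1 to 3 without 1 number; zQ175 minus WT had 1 gene higher in the first of these and 0 in the others. Of the named differences that were followed over the fits, that of Penk (0.07) changed sign, at -0.0411 with limma-voom, -0.0156 with the animal as replicate block and -0.07 to 0.30 with libraries left out. No other of those followed did. The differences of Spp1 and Rplp1 were not followed. The causes were not tested. Settings chosen after seeing the data were sample weights, the covariate, the 8-library fits and the WT fit without 2 libraries. Which neuronal N-ZFP libraries to leave out (1 and 3) also rested on measured values, their mitochondrial and long noncoding RNA levels. Depth limits low genes: 3 counts are 0.248 to 0.651 CPM.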
